A study of Homo sapiens with 12 samples.

Results

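ZNF560 and 8 neighbouring zinc finger genes, ZNF559, ZNF177, ZNF266, ZNF426, ZNF121, ZNF561, ZNF562 and ZNF846, form a run of C2H2 zinc finger genes on the short arm of human chromosome 19, in band p13. They were taken by gene symbol, and all 9 were present among the 36762 gene symbols of both count tables. ZNF560 was chosen because its measured level differed between genotypes in the stem cells, and the 8 others because they lie beside it. The values that chose ZNF560 are therefore given as a description, with no test. Bulk RNA sequencing covered lines of UCLA1, an established human embryonic stem cell (hESC) line, and the incipient mesoderm-like cells (iMeLC) made from them, a transient state on the way to primordial germ cell-like cells. The groups were CDKO hESC and CTRL hESC, and CDKO iMeLC and CTRL iMeLC, 3 libraries in each and 12 in all. In the CDKO groups the catalytic domain of TET1 was knocked out. The CTRL groups carry the genotype label Control, and the labels name no other treatment. The labels name 3 lines per genotype, CDKO1102, CDKO1105 and CDKO1312, and CTRL1101, CTRL1106 and CTRL1109. They do not say how the lines were derived or whether each is 1 clone.

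Zinc finger proteins of this kind bind DNA through arrays of C2H2 fingers, and many of the human ones also carry a KRAB domain. The KRAB domain recruits TRIM28, which brings in the histone methyltransferase SETDB1 and other repressors, so that the bound DNA, often a transposable element or an imprinted locus, is kept silent in embryonic stem cells. Many of these genes lie in large clusters on chromosome 19 that arose by repeated duplication. TET1 oxidises 5-methylcytosine, and its oxidation products are replaced by unmethylated cytosine, so it is linked to the removal of methylation from CpG-rich promoters.

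In GENCODE release 29 on GRCh38, ZNF560 (ENSG00000198028.3) covers chr19:9466507-9498607 on the minus strand. ZNF559, at chr19:9323772-9351162, and ZNF177, at chr19:9363020-9382617, are on the plus strand. The others are on the minus strand, from ZNF266 at chr19:9412461-9435578 through ZNF426 at chr19:9523224-9538645, ZNF121 at chr19:9560353-9584533, ZNF561 at chr19:9604680-9621399 and ZNF562 at chr19:9641808-9675086 to ZNF846 at chr19:9751993-9793180.

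Stretches of 29 bases around the annotated starts are shown because 6 of these genes hold closely related letters there. Within them ZNF560 and ZNF426 each differ from the others. The closest matches in ZNF846 and ZNF177 differed at 4 and 6 of the 13 aligned bases and are not shown. The promoters were taken from RefSeq (GRCh38.p14), 250 bases before to 50 bases after each start, and 8 of the 9 genes matched by symbol, all but ZNF559. Each sequence is written 5′ to 3′ on the gene's own strand, with the 13 aligned bases in capitals.
ZNF560: ccccaaacGGAAGTGACGTTGcggcgcgc
ZNF266: ctggaggcGGAAGTGACGTCAcggagcgc
ZNF426: cggagagcGTAAATGACGTCAgcggtgcg
ZNF121: ctcggagcGGAAGTGACGTCAgcgcacaa
ZNF561: gttgaagcGGAAGTGACGTCAgcgcacca
ZNF562: ctcggagcGGAAGTGACGTCAgtgtgcca
The windows lie at chr19:9498618-9498646 for ZNF560, chr19:9435575-9435603 for ZNF266, chr19:9538651-9538679 for ZNF426, chr19:9584539-9584567 for ZNF121, chr19:9621240-9621268 for ZNF561 and chr19:9675092-9675120 for ZNF562, all on the minus strand.

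The capitals hold GGAAGTG, a core of the kind bound by ETS factors, and TGACGTCA, the palindrome bound by CREB and ATF factors, which overlap by their shared TG. Positions are counted from 1 at the 5′ end of the capitals, with the ZNF561 letter first. Relative to ZNF561, the ZNF560 promoter carried C12T and A13G, which leave the first motif whole and break the palindrome after TGACGT. The ZNF426 promoter carried G2T and G5A, which leave the palindrome whole. ZNF121, ZNF266 and ZNF562 carried the same 13 letters as ZNF561. Both strands of all 27305 promoters in the table were searched. The 13 letters were read from the ZNF561 promoter, so its own match was fixed in advance and the counts are a description. They were found in 24 promoters (0.0879%), and 4 of them, ZNF561 included, belonged to these genes. Those 4 were the only ones among the 24 with a ZNF symbol followed by digits, apart from the antisense gene ZNF561-AS1. TGACGTCA alone was found in 1.98% of all promoters and in 5 of these 8, and GGAAGTG in 11.5% of all promoters and in 7 of these 8. ZNF846 and ZNF177 lacked TGACGTCA as ZNF560 did, so its absence is not particular to ZNF560. The ZNF560 promoter held 16 CpG dinucleotides in its 300 bases, against 24 for ZNF121, 14 for ZNF177 and a median of 14 over all promoters. These are matches of letters, and binding was not measured.

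The iMeLC libraries held 52121702 to 109479071 counts and the hESC libraries 12517593 to 18855099, so weakly expressed genes were counted more precisely in iMeLC. The hESC columns name a genotype and a replicate but no line, so CDKO hESC 1 to 3 and CTRL hESC 1 to 3 are named by replicate, and the iMeLC libraries by line. Stage coincides with the table and with depth, and these cannot be told apart. TET1 counts were 417 ± 35.6 CPM in CDKO hESC and 350 ± 27.8 CPM in CTRL hESC, and 288 ± 20.8 CPM in CDKO iMeLC and 270 ± 16.8 CPM in CTRL iMeLC (CPM, counts scaled to a common library total, SD, n = 3 each). These CPM, and the marker sums below, are scaled within each stage. On 1 scale for all 12 libraries TET1 averaged 369 CPM in CDKO hESC and 328 CPM in CDKO iMeLC, and 311 CPM in CTRL hESC and 301 CPM in CTRL iMeLC. Gene totals do not show whether the exons of the catalytic domain are present. None of the stem cell or mesoderm markers checked was at 0, and the 7 mesoderm markers summed to between 1189 and 1421 CPM in CDKO iMeLC and between 477 and 1315 CPM in CTRL iMeLC, against 130 to 396 CPM in CDKO hESC and 91.3 to 137 CPM in CTRL hESC. Replicate libraries differed by a chi-square of 4.04 to 181 per gene, against a value near 1 for pure sampling noise, so none was treated as a library deposited more than once.

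ZNF560 was close to the floor in most CDKO libraries and high in some CTRL libraries only. In hESC it had 0.327, 0.716 and 0.694 CPM in CDKO hESC 1, 2 and 3 (4, 13 and 12 counts), against 30.9, 1.70 and 31.3 CPM in CTRL hESC 1, 2 and 3 (502, 30 and 604 counts). CTRL hESC 1 and 3 were high, CTRL hESC 2 was low, and the genotypes did not overlap. In iMeLC it had 0.0987, 0.172 and 2.36 CPM in CDKO1102, CDKO1105 and CDKO1312 (5, 15 and 185 counts), against 30.6, 0.801 and 28.3 CPM in CTRL1101, CTRL1106 and CTRL1109 (2940, 77 and 3187 counts). CTRL1101 and CTRL1109 were high, and CTRL1106 lay below CDKO1312, so the genotypes overlapped. At each stage, then, 2 of the 3 CTRL libraries were high and the other was low. Whether CTRL hESC 2 is CTRL1106 cannot be read from the column names.

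The fitted log2 fold change of ZNF560 in hESC, CDKO over CTRL, was −5.13 (SE 0.97), and it ranged from −5.67 to −4.74 over the 11 alternatives tried. This is the contrast that chose the gene, and the gene passed the filter on low counts through its CTRL libraries, so nothing is read from a test of it. In that comparison edgeR called 1.31% of the 17222 genes tested (adjusted p under 0.05), 0.598% as higher and 0.714% as lower in CDKO. In iMeLC the log2 fold change was −4.47 (SE 1.45, 95% interval −7.83 to −1.10) and did not pass the test, with an adjusted p of 0.172 by edgeR's quasi-likelihood test over 19999 genes. It was −7.12 without CDKO1312, and was called under none of the 11 alternatives tried, whose adjusted p ranged from 0.0614 to 0.45. The labels name the same lines at both stages, so this iMeLC test is not independent of the choice of ZNF560. In iMeLC edgeR called 0.345% of genes, 0.08% as higher and 0.265% as lower in CDKO.

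On 1 scale for all 12 libraries, from low to high, ZNF560 averaged 0.512 ± 0.193 CPM in CDKO hESC, 0.995 ± 1.46 CPM in CDKO iMeLC, 18.9 ± 15.1 CPM in CTRL hESC and 22.2 ± 18.5 CPM in CTRL iMeLC (SD, n = 3 each). The libraries of each neighbouring pair in this order overlapped. The means of CDKO iMeLC and CTRL hESC lay farther apart than either SD, and those of the pairs within a genotype did not. Per kilobase of exon and on the hESC scale, ZNF560 averaged 7.51 ± 5.99 CPM per kb in CTRL hESC, beside 8.42 ± 0.626 for ZNF561 and 6.58 ± 0.59 for ZNF562. That mean joins the high and low CTRL hESC libraries given above and describes none of them. In CDKO hESC ZNF560 averaged 0.204 ± 0.0771 CPM per kb, against 9.0 ± 0.538 for ZNF561 and 7.70 ± 1.14 for ZNF562 in the same libraries. In bulk RNA, fewer cells that express the gene and less RNA per cell cannot be told apart. No 50-base stretch of the ZNF560 transcripts was shared with another annotated gene (0%). Its promoter faces AC008567.2, a long noncoding RNA gene on the opposite strand whose start lies 71 bases away. That gene, named here after its values were seen, had at most 2 counts in any library and 5 over all 12.

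**Figure D1:**
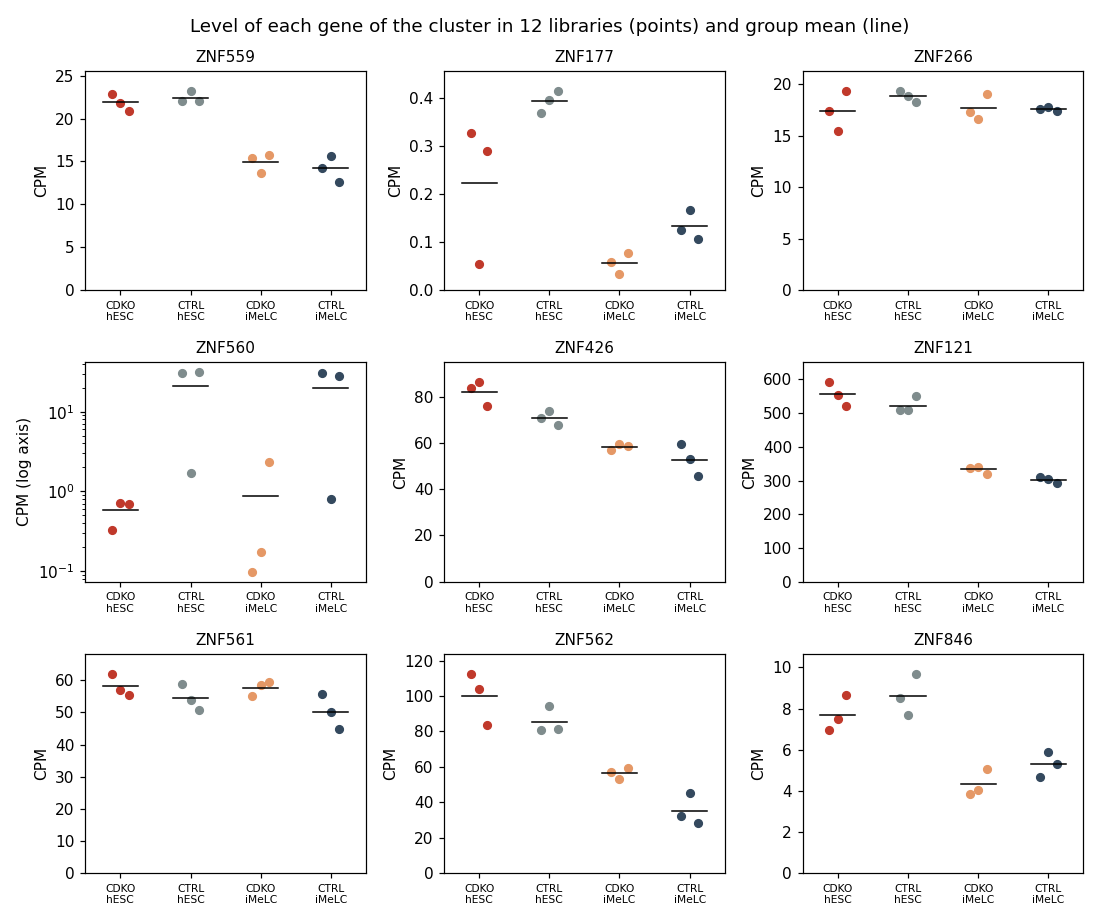
Levels of the 9 genes in CPM, with libraries as points and group means as lines, CDKO left of CTRL at each stage; the ZNF560 axis is logarithmic and the others start at 0. ZNF560 spans 0.0987 to 31.3 CPM with 1 low library in each CTRL group. CPM are scaled within each stage, so heights are to be compared within a stage only.

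None of the 8 neighbours had the same 2 highest libraries as ZNF560 at either stage. None of the 7 that passed the filter on low counts was called in either stage by edgeR's quasi-likelihood test, with 1 of 7 at an unadjusted p under 0.05 in each stage, beside 16.1% of all genes in hESC and 19.8% in iMeLC. DESeq2 called none of them in hESC and 1, ZNF562, in iMeLC, beside 3.62% and 7.29% of the genes it tested. Their median log2 fold change, CDKO over CTRL, was 0.09 in hESC and 0.14 in iMeLC, beside medians of −0.00 and −0.03 over all genes tested. The 2 sets of values rest on separate libraries, but the labels name the same lines at both stages. They are therefore not independent of each other.

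ZNF562 stood nearest to a call. In iMeLC it had 57.3, 53.0 and 59.6 CPM in CDKO1102, CDKO1105 and CDKO1312, against 32.3, 45.1 and 28.5 CPM in CTRL1101, CTRL1106 and CTRL1109. Every CDKO library lay above every CTRL library, and CTRL1106 was the nearest to them. How many of all genes separate in this way was not counted, so this is a description only, here and for the other genes. The log2 fold change of ZNF562 was 0.68 (SE 0.17, 95% interval 0.29 to 1.07), with an adjusted p of 0.127 by edgeR's quasi-likelihood test. It was called by DESeq2 (0.69, adjusted p = 0.0081), without the expression filter (0.68, adjusted p = 0.0487), in the edgeR fit over all 12 libraries (0.71, adjusted p = 0.0241) and in edgeR without CTRL1106 (0.90, adjusted p = 0.0306). Over the 11 alternatives the adjusted p ranged from 0.0081 to 0.414. In hESC the values were 113, 104 and 83.8 CPM in CDKO and 80.7, 94.5 and 81.7 CPM in CTRL, which overlap, for a log2 fold change of 0.23 (95% interval −0.03 to 0.48, adjusted p = 0.366, edgeR).

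The ranges of the mesoderm marker sums given above overlapped between CDKO iMeLC and CTRL iMeLC but reached higher in CDKO. The 5 endoderm markers, none at 0, summed to 145 to 296 CPM in CDKO iMeLC and 11.5 to 151 CPM in CTRL iMeLC. In hESC the same 5 summed to 13.7 to 180 CPM in CDKO and 7.41 to 25.4 CPM in CTRL. The part of such cells in the values of ZNF562, ZNF560 or the other genes was not tested at either stage. The exons of ZNF562 also overlap those of ZNF561-AS1, on the opposite strand, over 18.9% of their bases, and whether counting used the strand is not known here, so reads of the 2 genes may not be separable. ZNF561-AS1 had 3.45, 4.03 and 4.12 CPM in CDKO iMeLC, against 5.71, 6.49 and 7.55 CPM in CTRL iMeLC. Its groups did not overlap either, in the opposite direction, with a log2 fold change of −0.77 (95% interval −1.21 to −0.33, adjusted p = 0.127, edgeR).

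ZNF426, known as a repressor of Kaposi's sarcoma-associated herpesvirus reactivation, had 83.6, 86.2 and 75.9 CPM in CDKO hESC, against 70.6, 73.7 and 67.8 CPM in CTRL hESC. The groups did not overlap, but the difference of 0.21 on the log2 scale (95% interval 0.04 to 0.39) had an adjusted p of 0.225 by edgeR. In iMeLC the groups overlapped, at 57.0, 59.4 and 58.5 CPM in CDKO and 59.3, 53.0 and 45.5 CPM in CTRL, with a log2 fold change of 0.15 (95% interval −0.11 to 0.40, adjusted p = 0.475, edgeR). ZNF561 had 62.1, 57.1 and 55.4 CPM in CDKO hESC, against 58.8, 54.0 and 50.7 CPM in CTRL hESC. Its groups also overlapped in iMeLC, at 55.0, 58.5 and 59.5 CPM in CDKO and 55.6, 50.1 and 44.9 CPM in CTRL, where the log2 fold change was 0.20 (95% interval −0.04 to 0.44, adjusted p = 0.318, edgeR).

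ZNF121 was the most abundant of the 9 per kilobase, with 76.6 ± 4.96 CPM per kb in CDKO hESC and 72.1 ± 3.26 in CTRL hESC, and 46.0 ± 1.57 in CDKO iMeLC and 41.7 ± 1.43 in CTRL iMeLC (SD, n = 3 each). These values are scaled within each stage, so hESC and iMeLC are not to be compared on them. Its CDKO iMeLC libraries, at 338, 341 and 320 CPM, all lay above the CTRL iMeLC libraries, at 312, 303 and 291 CPM. That difference was 0.14 on the log2 scale (95% interval −0.03 to 0.31, adjusted p = 0.319, edgeR), and the hESC groups overlapped.

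ZNF559 and ZNF266 lie on the other side of ZNF560. ZNF559 had 22.9, 21.9 and 20.9 CPM in CDKO hESC, against 22.1, 23.3 and 22.0 CPM in CTRL hESC, a log2 fold change of −0.04 (95% interval −0.26 to 0.18). In iMeLC its log2 fold change was 0.07 (95% interval −0.24 to 0.38). ZNF266, the nearest neighbour on that side, had 17.4, 15.4 and 19.4 CPM in CDKO hESC, against 19.3, 18.8 and 18.3 CPM in CTRL hESC. In iMeLC it had 17.3, 16.7 and 19.1 CPM in CDKO and 17.6, 17.8 and 17.4 CPM in CTRL, a log2 fold change of 0.00 (95% interval −0.25 to 0.25). These intervals hold no change as large as that fitted for ZNF560. ZNF846, the farthest from ZNF560, had log2 fold changes of −0.16 (95% interval −0.52 to 0.20) in hESC and −0.29 (95% interval −0.76 to 0.17) in iMeLC, with overlapping groups in both.

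ZNF177, a gene reported as silenced by promoter methylation in tumours, had too few counts to be tested within a stage. It had 4, 1 and 5 counts in CDKO hESC and 6, 7 and 8 counts in CTRL hESC. In the deeper iMeLC libraries it had 3, 3 and 6 counts in CDKO and 12, 16 and 12 counts in CTRL. The summed counts, scaled to library size, gave a CDKO over CTRL ratio of 0.531 in hESC (exact 95% interval 0.223 to 1.18) and 0.423 in iMeLC (0.202 to 0.822). These intervals cover counting error only, and not the spread between lines. Its exons share 90.8% of their bases with the readthrough gene ZNF559-ZNF177, which had 3 to 8 counts in CDKO hESC and 4 to 8 in CTRL hESC, and 6 to 18 counts in CDKO iMeLC and 12 to 25 in CTRL iMeLC, so its own level is uncertain.

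**Figure D2:**
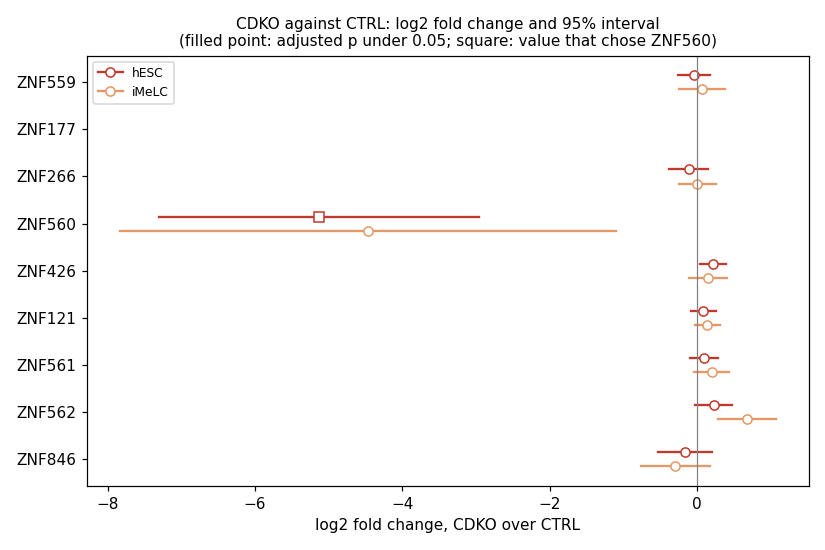
Log2 fold change of each gene, CDKO over CTRL, in hESC and iMeLC, with 95% intervals from edgeR; genes run down the page in chromosome order, the square marks the value that chose ZNF560, and ZNF177 was not tested. Apart from ZNF560, values lie between −0.29 and 0.68.

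EdgeR made no call in the wider neighbourhood in the main fits. Of 67 other genes whose start lies within 1 Mb of that of ZNF560, 34 were tested in hESC and 39 in iMeLC. Of these 0 were called, with 3 and 9 at an unadjusted p under 0.05, beside 16.1% and 19.8% of all genes. Their median log2 fold changes were −0.15 in hESC and −0.25 in iMeLC, beside −0.00 and −0.03 over all genes tested. DESeq2 called 1 of 34 in hESC and 3 of 39 in iMeLC, shares near the 3.62% and 7.29% of all genes. Besides ZNF561-AS1, those nearest to a call were UBL5, MUC16 and ICAM5. UBL5, a ubiquitin-like protein gene, averaged 13.8 ± 1.16 CPM in CDKO hESC and 18.4 ± 0.843 CPM in CTRL hESC (log2 fold change −0.42, adjusted p = 0.133, edgeR). In iMeLC it lay the other way, at 40.4 ± 2.34 CPM in CDKO and 35.5 ± 1.63 CPM in CTRL (0.19, adjusted p = 0.298, edgeR). MUC16, which encodes a large membrane mucin, had log2 fold changes of −1.08 in hESC (adjusted p = 0.134) and −1.86 in iMeLC (adjusted p = 0.154), both by edgeR. ICAM5, an adhesion molecule gene, was at −0.41 in hESC (adjusted p = 0.708) and −1.89 in iMeLC (adjusted p = 0.143), both by edgeR. Under the edgeR alternatives, ZNF561-AS1 was called in iMeLC in the fit over 12 libraries and without CTRL1101. MUC16 was called in hESC without a filter and in iMeLC in the fit over 12 libraries. ICAM5 was called in iMeLC without CTRL1101, and UBL5 under none.

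**Figure D3:**
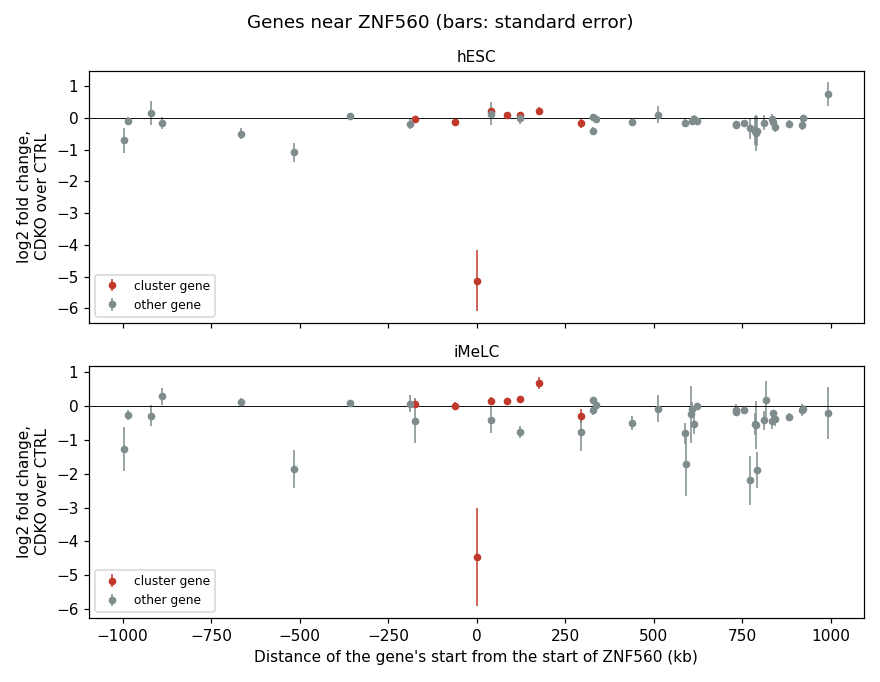
Log2 fold change, CDKO over CTRL, of the tested genes within 1 Mb of ZNF560, against the distance of each gene's start from the start of ZNF560 in kb; bars are standard errors. ZNF560, at −5.13 in hESC and −4.47 in iMeLC, lies below every other gene plotted.

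Between stages, several of the neighbours changed. In CDKO, 5 of the 8 neighbours were called between iMeLC and hESC, beside 59.8% of all 20262 genes tested. In CTRL, 3 of the 8 were called, beside 49.4% of all genes. The CDKO share is near that of all genes and the CTRL share is below it. ZNF562 fell in both genotypes, with log2 fold changes, iMeLC over hESC, of −0.46 in CDKO (adjusted p = 0.0217) and −0.95 in CTRL (adjusted p = 2.22e-04, edgeR). On the 12-library scale it averaged 64.4 ± 3.34 CPM in CDKO iMeLC and 88.6 ± 13 CPM in CDKO hESC, and 39.4 ± 9.8 CPM in CTRL iMeLC and 76.2 ± 7.02 CPM in CTRL hESC.

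ZNF121 also fell in both, by 0.37 on the log2 scale in CDKO (adjusted p = 7.64e-04) and by 0.47 in CTRL (adjusted p = 1.60e-04, edgeR). ZNF846 fell in CDKO (−0.48, adjusted p = 0.0336) and ZNF559 fell in CTRL (−0.34, adjusted p = 0.0208), both by edgeR. ZNF266 and ZNF561 rose in CDKO, by 0.38 (adjusted p = 0.00789) and 0.35 (adjusted p = 0.00808, edgeR). In CTRL the same genes had log2 fold changes of 0.23 and 0.21, which did not pass. For ZNF560 the log2 fold change was 0.94 in CDKO (95% interval −2.62 to 4.51) and 0.23 in CTRL (95% interval −2.20 to 2.65). Both intervals are wide, and the reason was not tested. These contrasts use the hESC libraries that chose ZNF560, so they are a description only. With DESeq-type scaling the median of all genes moved from −0.01 to −0.10 in CTRL and from −0.08 to −0.13 in CDKO, and the values above are relative to the first of each pair. Leaving out 1 library ended several of these calls. The ZNF559 call in CTRL was lost without any 1 of the 3 CTRL hESC libraries, and the ZNF562 call in CDKO without CDKO hESC 1 or 2. The ZNF266 call was lost without CDKO1312 and the ZNF561 call without CDKO1105 or CDKO1312. The ZNF846 call was lost without CTRL hESC 1 or 3, any 1 of the CDKO hESC libraries, CDKO1102 or CDKO1105. The ZNF121 calls held under all 16 alternatives in both genotypes, as did the ZNF562 call in CTRL.

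Of the 8 neighbours, 0 had a genotype difference that itself differed between stages by edgeR, beside 0.0197% of all genes. Among them 1 had an unadjusted p under 0.05, beside 11.2% of all genes. ZNF560 is not counted, because its hESC values chose it. DESeq2 also called 0 of them, beside 1.12% of the genes it tested. The 1 gene was ZNF562, at 0.49 on the log2 scale (95% interval 0.02 to 0.97, adjusted p = 0.432).

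**Figure D4:**
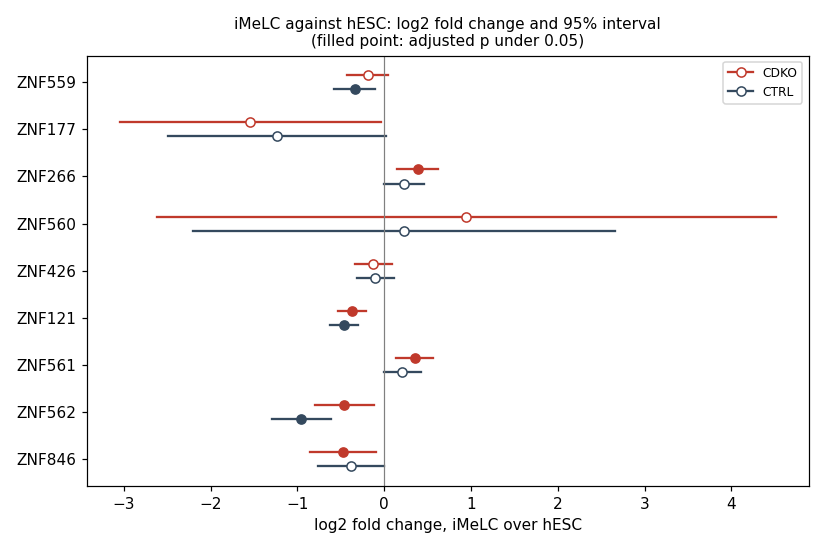
Log2 fold change of each gene, iMeLC over hESC, in CDKO and CTRL, with 95% intervals from edgeR; filled points passed an adjusted p of 0.05. ZNF121 and ZNF562 are filled on the negative side in both genotypes, and ZNF560 has an interval from −2.62 to 4.51 in CDKO.

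In the repressor pathway that KRAB proteins use, 1 of 22 genes, all tested, rose in CDKO hESC and 0 were called in CDKO iMeLC by edgeR, beside 1.31% and 0.345% of all genes. At an unadjusted p under 0.05 there were 4 of 22 in each stage, beside 16.1% and 19.8% of all genes, and DESeq2 called 1 in hESC and 2 in iMeLC, beside 3.62% and 7.29%. The one that rose was RESF1, a partner of SETDB1 in retroelement silencing, at 770 ± 64.1 CPM in CDKO hESC and 569 ± 17.8 CPM in CTRL hESC (log2 fold change 0.43, adjusted p = 0.036, edgeR). That call was lost in the fit over 12 libraries and without CTRL hESC 1 or 3 or any 1 of the CDKO hESC libraries. In iMeLC it averaged 411 ± 27.5 CPM in CDKO and 307 ± 20.5 CPM in CTRL (0.42, adjusted p = 0.104, edgeR). CHD3, a subunit of the NuRD repressor, was at 0.56 in iMeLC (adjusted p = 0.098), and DNMT1, the maintenance DNA methyltransferase, at −0.18 (adjusted p = 0.253, edgeR). Of 8 KRAB zinc finger genes known for imprint or transposon binding, edgeR called 0 at either stage, with 0 at an unadjusted p under 0.05 in hESC and 1, ZNF93, in iMeLC, and DESeq2 also called 0. Of the other zinc finger genes on chromosome 19, 2 of 216 tested rose in CDKO hESC (ZNF878 by 0.63 and ZNF486 by 0.75 on the log2 scale), and 0 of 227 were called in iMeLC by edgeR, with 33 and 49 at an unadjusted p under 0.05. DESeq2 called 11 of the 222 it tested in hESC and 17 of 226 in iMeLC. Beside these stand, for all genes, 1.31% and 0.345% called by edgeR, 16.1% and 19.8% at an unadjusted p under 0.05, and 3.62% and 7.29% called by DESeq2. ZNF878 and ZNF486 were not called by edgeR without CTRL hESC 1 or without any 1 of the CDKO hESC libraries, and ZNF878 was also not called in the fit over 12 libraries. On other chromosomes edgeR called 0 of 217 in hESC, with 31 at an unadjusted p under 0.05, and 1 of 221 in iMeLC, with 36, while DESeq2 called 5 of 217 and 8 of 221. That one was ZNF311, which fell by 5.20 on the log2 scale in CDKO iMeLC (adjusted p = 0.046, edgeR). It was not called without CTRL1109 or without any 1 of the CDKO iMeLC libraries.

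The genes most like ZNF560 over the 12 libraries were chosen by Pearson's r of log2 CPM among 14047 genes with a mean of at least 1 CPM. The 8 highest were ZNF728 (r = 0.89), ZNF729 (0.88), HEPH (0.86), TKFC (0.86), ZNF99 (0.86), ZNF98 (0.86), BEX5 (0.84) and RALGDS (0.84). The 12 points share genotype, stage and depth, and no p is given. None of the neighbours tested had an r above 0.42, the value of ZNF846. When r was taken over deviations from the stage mean, the 8 genes had r from 0.85 to 0.90 and ranked from 5 to 31 of the 14047. ZNF728, at rank 5, was then the 1 of the 8 among the highest 8. On that measure the neighbours tested ranged from −0.79 for ZNF562 to 0.61 for ZNF846. HEPH, the copper ferroxidase hephaestin on the X chromosome, had 0.163, 0 and 0.405 CPM in CDKO hESC, against 22.2, 0.226 and 25.4 CPM in CTRL hESC. In iMeLC it had 0.0395, 0.115 and 0.115 CPM in CDKO, against 17.3, 0 and 32.8 CPM in CTRL1101, CTRL1106 and CTRL1109. As with every gene of this list, its likeness to ZNF560 is what chose it.

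ZNF728, ZNF729, ZNF98 and ZNF99 are zinc finger genes of band p12 of the same chromosome arm. ZNF729 had 0.0817, 0.110 and 0 CPM in CDKO hESC, against 345, 0.0566 and 362 CPM in CTRL hESC. In iMeLC it had 0.197, 0.115 and 0.217 CPM in CDKO, against 137, 0.0208 and 114 CPM in CTRL1101, CTRL1106 and CTRL1109. CTRL hESC 2 lay within the range of the CDKO libraries and CTRL1106 below it. A gene at this level in 2 of 6 libraries only is removed by the filter on low counts, so ZNF729 was not tested in hESC.

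Within 1 Mb of ZNF729, a window chosen after these values were seen, lie 17 ZNF genes. In 9 of them the 2 highest of 6 libraries were the same as for ZNF560 at both stages, CTRL hESC 1 and 3 and CTRL1101 and CTRL1109. Over all 20261 other genes tested across the 12 libraries, 1.17% had the same 2 highest libraries at both stages. ZNF728, ZNF729, ZNF98 and ZNF99, chosen above for their likeness to ZNF560, are 4 of the 9, and of the 13 other ZNF genes of the window 5 had them. The 9 are consecutive among the 17, from ZNF208 to ZNF728 (chr19:21932958-23003176), a span of 1.07 Mb that begins 12.4 Mb from ZNF560. In each of them the second highest library exceeded the third by more than 1.5 times at both stages, and of all 20261 genes 14 (0.0691%), these 9 included, met both conditions. The cut of 1.5, like the window, was not planned beforehand, so these counts are a description. The smallest gap was 1.57, for ZNF257 in iMeLC. ZNF723 was near the floor in iMeLC, where its highest library had 0.559 CPM. ZNF208, the most abundant in CPM, showed a smaller gap, with 449, 442 and 388 CPM in CDKO hESC, against 954, 400 and 992 CPM in CTRL hESC. ZNF676 varied among CDKO libraries too, at 0.163, 118 and 98.1 CPM in CDKO hESC, against 273, 79.9 and 300 CPM in CTRL hESC. In iMeLC ZNF676 had 1.70, 77.2 and 50.8 CPM in CDKO1102, CDKO1105 and CDKO1312, against 192, 1.72 and 149 CPM in CTRL1101, CTRL1106 and CTRL1109. ZNF43 and ZNF730, on either side of the 9, had the same 2 highest libraries in hESC but not in iMeLC. ZNF43 had 73.0, 69.8 and 65.1 CPM in CDKO iMeLC and 70.7, 80.3 and 69.0 CPM in CTRL iMeLC. How much sequence these p12 genes share was not measured, and reads may be split between them.

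**Figure D5:**
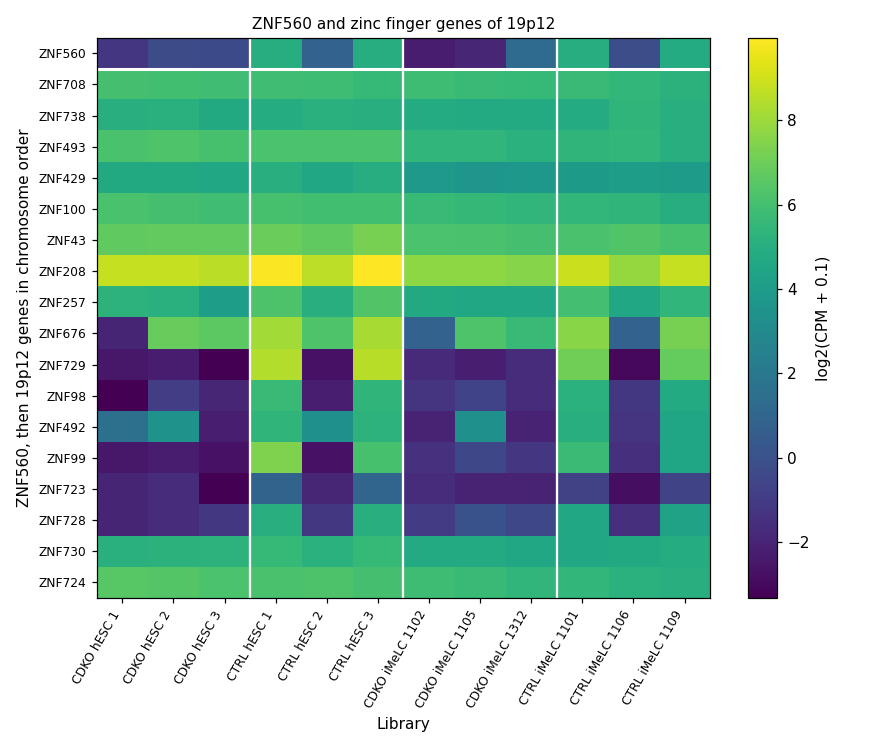
Level of ZNF560 (top) and of 17 zinc finger genes of band p12 in chromosome order, as log2(CPM + 0.1), in 12 libraries with CDKO left of CTRL at each stage. From ZNF208 to ZNF728, CTRL hESC 1 and 3 and CTRL1101 and CTRL1109 are the highest libraries, as they are for ZNF560, while ZNF43 and ZNF730 beside that stretch are more even. CPM are scaled within each stage.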

How the data were processed

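Per the labels' protocols, RNA of sorted or pelleted cells was made into libraries with the SMARTer Stranded Total RNA kit. The deposited values are whole-number counts per gene symbol, not normalised, in 1 table per stage. FastQC, cutadapt, edgeR and GRCh38 are named in the submitters' processing notes; the aligner, counter, annotation and strand setting were not given in the sources used here.

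Counts were scaled by TMM and tested with edgeR 4.0.16 in R 4.3.3 (quasi-likelihood test, filterByExpr, two-sided, Benjamini-Hochberg over all genes tested, threshold 0.05). Genotypes were compared within a stage over 6 libraries, and stages and the interaction over 12 with 4 group means. CPM per library is on the scale of its stage unless stated. DESeq2 1.42.0, DESeq-type (RLE) scaling, no filter, at least 1 CPM in 3 libraries and leaving out each library were the alternatives. Log2 CPM for correlations used a prior count of 0.5. Of 36762 symbols, 34217 (93.1%) matched exactly 1 gene of GENCODE release 29.

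The members, lists and tests were chosen with earlier results of these data known. Genes named outside the 9 are the 8 with the highest r with ZNF560, and up to 4 with the smallest adjusted p in each list; genes of band p12 beyond those were named after their values were seen. The labels do not say whether the libraries of a group came from separate cultures grown in parallel, so p-values measure the spread between these libraries. Intervals on summed counts cover counting error only, and reads carry no stated molecular identifiers.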

Additional observations from a re-analysis of the deposited data

How the results depend on the processing

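Of 587 alternative values of the 9 genes, 532 kept direction and side of the threshold, 18 newly passed it, 22 no longer passed and 15 changed sign. Those of ZNF560 in hESC, the contrast that chose it, are included. Where a result changed, the cause was not tested. The 226 genes called in hESC became 632 with DESeq2, 1228 without a filter and 72 in the fit over 12 libraries. With 1 library left out they ranged from 5 to 493. No neighbour of ZNF560 was called in hESC under any of these settings. ZNF560 itself is not counted there, because that contrast chose it. The 69 genes called in iMeLC became 1479, 428 and 1310 under the same settings and 15 to 2646 with 1 library left out; the 0 calls among the 9 genes became 1 (ZNF562) with DESeq2, 1 without a filter, 1 in the fit over 12 libraries and 0 to 1 with 1 library left out. The 4 interaction calls became 192 with DESeq2, 29 without a filter and 1 to 439 with 1 library left out. The 5 stage calls in CDKO ranged from 3 to 7 with 1 library left out, and the 3 in CTRL from 2 to 4. The sign turned in these cases. ZNF266 in iMeLC was −2.1e-04 without a filter and −0.0192 with at least 1 CPM in 3 libraries, and the ZNF426 interaction was 0.017 with DESeq2 and 0.014 with RLE scaling. With 1 library left out, the log2 values ranged from −0.0029 to 0.15 for ZNF559 in iMeLC, −0.0499 to 0.0466 for ZNF266 in iMeLC, −0.31 to 0.74 for ZNF560 between stages in CTRL, −1.76 to 1.38 for ZNF560 between stages in CDKO, −1.94 to 1.28 for the ZNF560 interaction, −0.801 to 0.0397 for the ZNF177 interaction and −0.145 to 0.0526 for the ZNF426 interaction. No paired analysis was possible because the hESC columns name no line and the CDKO and CTRL lines carry different numbers. There were 3 libraries a group, ZNF560 varied among CTRL libraries, and its genotype difference has a wide interval. With 1 to 16 counts per library, ZNF177 is left undecided.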
